A study of Mus musculus with 6 samples.

Results

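The Wnt signalling genes of E10 mouse eye tissue were compared between *Rdh10* KO and wild-type embryos. The group is a list of 51 genes matched by gene name, made up of Wnt ligands, frizzled, Lrp and Ror receptors, secreted inhibitors, the R-spondin axis, beta-catenin with the TCF factors, and regulators and feedback targets. All 51 were found among the 26437 genes of the deposited table. *Rdh10* encodes a retinol dehydrogenase that makes retinaldehyde, the precursor of retinoic acid (RA), and the study asked which genes of the early eye region depend on it. RNA-seq was performed on 3 libraries per genotype, each from a pool of 3 embryos at E10, either wild-type or *Rdh10*-/-, of an outbred Black Swiss and C57BL/6 background, obtained from heterozygous matings. The loss of *Rdh10* was therefore inherited by the whole embryo and not limited to the eye. The tissue was the front of the head, with both optic vesicles, the frontonasal region and part of the forebrain, and the labels call it embryonic craniofacial, so each value is an average over several cell types.

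Wnt ligands are secreted glycoproteins that bind a frizzled receptor together with the co-receptor Lrp5 or Lrp6, after which beta-catenin escapes destruction, enters the nucleus and activates genes with TCF/LEF factors. Some of those genes encode inhibitors of the pathway, such as *Axin2*, *Nkd1*, *Notum*, *Rnf43* and *Znrf3*, and their RNA is widely used as a readout of signalling. In the early head, Wnt signals pattern the border between midbrain and hindbrain, the facial primordia and the dorsal eye, and RA is known to limit Wnt signalling around the optic cup through the inhibitor Dkk2.

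The unit of the values is the normalized count, that is, reads on a gene scaled by 1 size factor for each library, and the libraries held 16392777 to 27101025 reads on genes. The targeted gene was looked at first. *Rdh10* stood at 399, 342 and 381 normalized counts in wild-type replicates 1, 2 and 3 and at 183, 142 and 181 in the *Rdh10* KO libraries, so that 45.1% of the wild-type mean remained, with a log2 fold change of -1.16 (SE 0.13, limma adjusted p = 7.35e-05). Eye markers were present in all 6 libraries. The summed level of 8 optic vesicle genes was 5818 to 5892 in wild-type and 5675 and 5926 in *Rdh10* KO replicates 2 and 3, against 4232 in replicate 1. This sum holds changes in both directions, since 1 of the 8 was lower and 2 were higher. The mean of *Lhx2* fell from 1710 to 1038, while *Six3* rose from 742 to 1063 and *Rax* from 195 to 317. Among 11 craniofacial mesenchyme genes 3 were lower and 0 higher, with sums of 15790 to 15960 in wild-type and 13181 to 13461 in *Rdh10* KO. Of 4 placental genes found in the table, 3 were higher, and their sum was 55.3 to 78.9 in *Rdh10* KO against 0 to 2.23 in wild-type. Of 5 endothelial genes 3 were higher (*Kdr*, *Pecam1* and *Cdh5*) and 0 lower, with sums of 3763 to 3841 in *Rdh10* KO and 2496 to 2917 in wild-type, so these groups did not overlap either. The part that such differences between libraries play in the Wnt results was not tested.

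Most Wnt genes did not pass the test between genotypes, and apart from *Wnt1* and *Wnt9b* those that rose did so by at most 1.48-fold and those that fell kept at least 69.9% of their wild-type level. With limma on log2 values and p-values adjusted over all 22921 genes tested, 4 of the 51 genes were lower in *Rdh10* KO (*Wnt9b*, *Dkk1*, *Rspo1* and *Axin1*) and 12 were higher (*Wnt1*, *Wnt9a*, *Fzd3*, *Fzd5*, *Fzd7*, *Lrp5*, *Lrp6*, *Ror1*, *Sfrp1*, *Znrf3*, *Tcf7l1* and *Tcf7l2*) at an adjusted p-value under 0.05. This is 7.84% lower and 23.5% higher, where all genes tested gave 9.12% lower and 10.3% higher. All 51 genes had a mean above 10 normalized counts, and over the 15272 genes that did, the shares were 13.4% lower and 15.0% higher. Taken in both directions, 16 of the 51 genes passed, beside 19.4% of all genes tested and 28.4% of those with a mean above 10, so the number that passed was near that background and the share that rose was above it. The other 35 genes had log2 fold changes between -0.52 and 0.67, and the median over all 51 was 0.09, with 33 above 0, beside a median of 0.0036 for all genes tested. Since the tissue is bulk, fewer cells that express a gene and less RNA of it per cell cannot be told apart.

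With an additional cut-off of 0.85 in log2 fold change, 2 genes remained, *Wnt9b* lower and *Wnt1* higher, against 0.886% and 2.41% of all genes tested and 1.05% and 3.18% of those with a mean above 10. The *Rdh10* KO and wild-type libraries did not overlap for 19 of the 51 genes, 6 of them lower and 13 higher, where 17.0% and 17.6% of all genes tested, 34.6% together, did the same. Among genes with a mean above 10 the shares were 22.9%, 23.2% and 46.2%, so the count for the Wnt genes was not above that background. For each of these 19 the exact two-sided permutation test gave 0.1, the smallest p that 3 libraries against 3 allow, so the calls rest on the model fitted across all genes. They also rest on every wild-type library. Counts fell to 1 lower and 3 higher without wild-type replicate 1, to 0 and 3 without replicate 2 and to 1 and 3 without replicate 3, whereas they were 2 and 10, 4 and 9, and 1 and 6 without *Rdh10* KO replicates 1, 2 and 3. Calls fell over all genes tested as well, from 2091 lower and 2360 higher with all libraries. Without wild-type replicates 1, 2 and 3 they were 484 and 888, 427 and 850, and 810 and 1211. Without *Rdh10* KO replicates 1, 2 and 3 they were 1895 and 1983, 1314 and 1598, and 1188 and 1436. Only *Wnt1* and *Fzd7* passed in each of these 6 fits, and when limma's intensity trend was left out, *Wnt9b* passed and the other 15 did not.

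**Figure D1:**
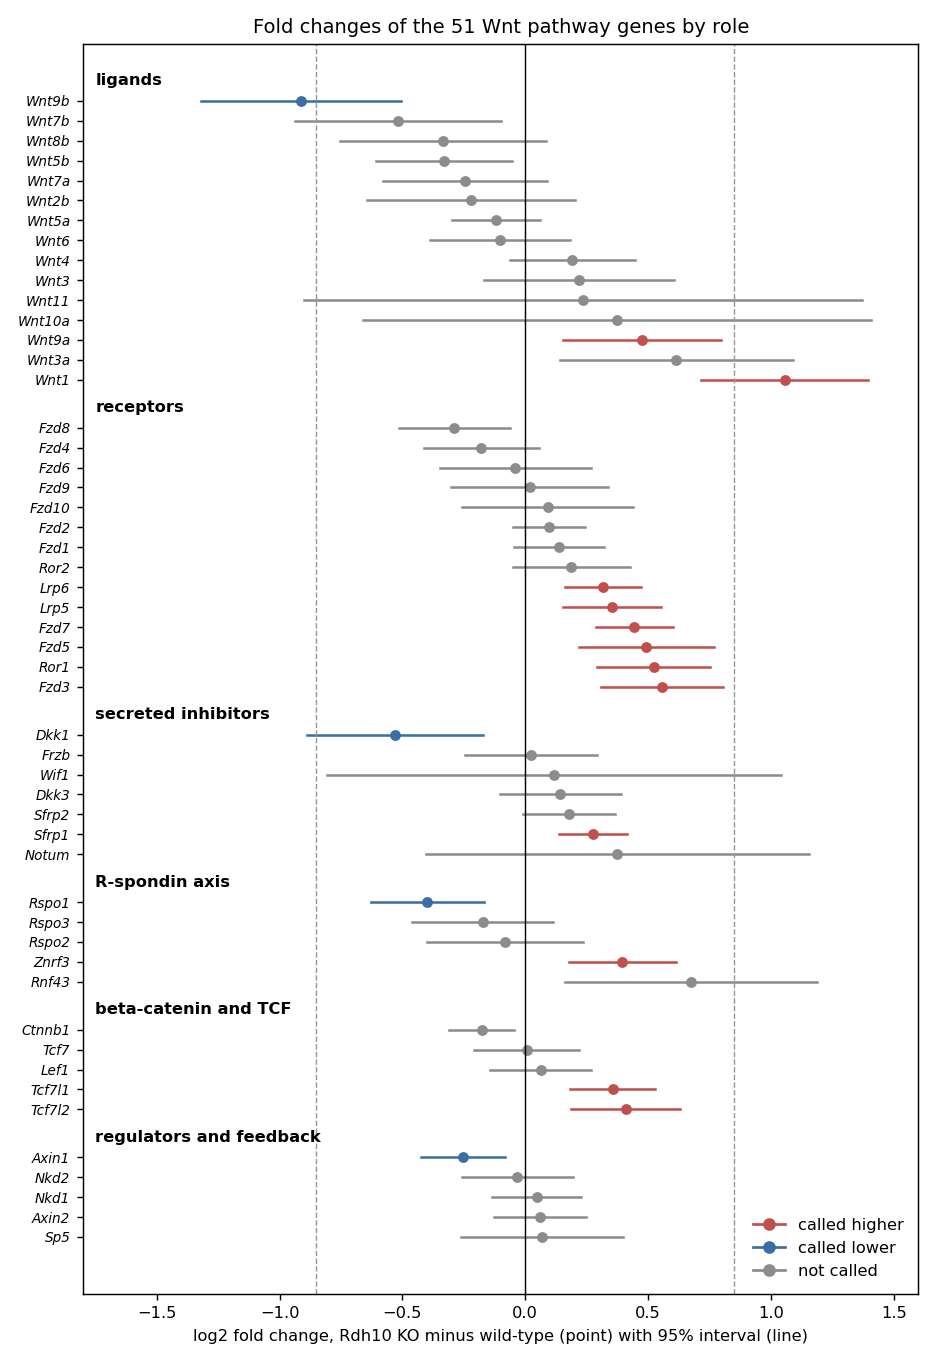
Log2 fold change of each of the 51 Wnt genes, *Rdh10* KO minus wild-type, with its 95% confidence interval, arranged by role; blue and red points passed an adjusted p-value under 0.05, gray ones did not, and dashed lines mark the cut-off of 0.85. *Wnt9b* at -0.91 and *Wnt1* at 1.05 lie beyond the lines, and 6 of the 14 receptors lie to the right of 0 in red.

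Among the 15 ligands, *Wnt1* rose, *Wnt9a* rose less and *Wnt9b* fell, whereas the other 12 did not pass the test, and the median log2 fold change was -0.10. *Wnt1*, a signal of the midbrain-hindbrain border and the dorsal midline (ENSMUSG00000022997.9, chromosome 15, 98789857 to 98793837, plus strand, GRCm38), counted 148, 110 and 105 in wild-type and 269, 250 and 231 in *Rdh10* KO. All 3 *Rdh10* KO libraries stood above all 3 wild-type ones. The means were 121 ± 23.6 and 250 ± 19.0 (SD, n = 3), 2.06-fold higher, with a log2 fold change of 1.05 (SE 0.16, 95% interval 0.72 to 1.39, limma adjusted p = 0.000444). *Wnt9b*, expressed in surface ectoderm and needed for facial outgrowth (ENSMUSG00000018486.2, chromosome 11, 103727364 to 103749821, minus strand), counted 105, 112 and 113 in wild-type and 58.0, 52.3 and 65.9 in *Rdh10* KO. Again the groups did not overlap. Its mean fell from 110 ± 4.19 to 58.7 ± 6.84 (SD, n = 3), to 53.3% of wild-type, with a log2 fold change of -0.91 (SE 0.19, 95% interval -1.32 to -0.50, limma adjusted p = 0.00405), and without wild-type replicate 2 its adjusted p was 0.0513. Of 7 surface ectoderm markers 0 were lower and 1 higher (*Cdh1*), and their sums overlapped, at 5158 to 5689 in wild-type and 5149 to 6130 in *Rdh10* KO. *Krt14* counted 87.0, 107 and 67.7 in wild-type and 35.1, 53.3 and 65.9 in *Rdh10* KO. Its groups did not overlap, but its log2 fold change of -0.78 did not pass the test (limma adjusted p = 0.0548). The rest did not pass either, with *Krt5*, *Epcam* and *Krt8* at -0.61, -0.11 and -0.08 and *Krt18* and *Trp63* at 0.15 and 0.18. *Wnt9a*, a ligand of joint and neural crest tissues, (ENSMUSG00000000126.11, chromosome 11, 59306928 to 59333552, plus strand) counted 163, 165 and 175 in wild-type and 221, 287 and 199 in *Rdh10* KO, 1.41-fold higher (log2 fold change 0.47, SE 0.15, limma adjusted p = 0.0395). Its call ended in each of the 6 fits without a library, with an adjusted p of 0.187 without wild-type replicate 1.

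The promoters of both genes past the cut-off, *Wnt1* and *Wnt9b*, are shown with those of *Dkk1*, an inhibitor that fell, and *Sp5*, a feedback target that did not pass the test, so that their TCF motifs can be compared. Each line holds the 250 bases before the RefSeq start on GRCm38.p6, read 5′ to 3′ on the gene's own strand, with matches to the TCF motif (CTTTG followed by AA, AT, TA or TT, either strand) in capitals. The windows are chr15:98789607-98789856 on the plus strand, chr11:103749822-103750071 on the minus strand, chr19:30549497-30549746 on the minus strand and chr2:70474673-70474922 on the plus strand.
*Wnt1*: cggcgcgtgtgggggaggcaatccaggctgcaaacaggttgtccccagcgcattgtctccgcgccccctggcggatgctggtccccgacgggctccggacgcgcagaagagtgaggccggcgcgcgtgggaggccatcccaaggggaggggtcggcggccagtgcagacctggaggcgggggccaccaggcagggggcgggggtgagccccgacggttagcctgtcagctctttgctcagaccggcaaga
*Wnt9b*: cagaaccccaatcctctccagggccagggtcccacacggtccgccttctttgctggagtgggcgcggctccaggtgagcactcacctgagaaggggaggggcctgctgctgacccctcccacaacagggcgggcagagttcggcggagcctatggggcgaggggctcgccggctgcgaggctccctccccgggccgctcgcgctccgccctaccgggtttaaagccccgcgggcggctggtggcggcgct
*Dkk1*: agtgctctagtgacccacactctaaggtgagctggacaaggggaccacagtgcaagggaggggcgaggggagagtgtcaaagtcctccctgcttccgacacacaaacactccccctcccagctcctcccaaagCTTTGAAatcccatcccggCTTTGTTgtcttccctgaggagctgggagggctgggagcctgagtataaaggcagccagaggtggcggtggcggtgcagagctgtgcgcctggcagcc
*Sp5*: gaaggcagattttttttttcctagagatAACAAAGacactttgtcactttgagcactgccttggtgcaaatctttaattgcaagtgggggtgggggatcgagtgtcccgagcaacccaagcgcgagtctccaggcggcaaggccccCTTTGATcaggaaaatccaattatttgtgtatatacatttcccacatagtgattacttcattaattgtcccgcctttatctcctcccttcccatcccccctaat
The *Dkk1* window held 2 matches, 117 to 111 and 98 to 92 bases before the start. The RefSeq start of *Dkk1* lies inside the gene's GENCODE span (30545863 to 30549665), so both matches fall within that span. The windows of *Wnt1*, *Wnt9b* and *Sp5* end where the GENCODE span begins. The *Sp5* window held 2, of which that at 222 to 216 bases was on the opposite strand and that at 104 to 98 on the same strand. *Wnt1* and *Wnt9b* held 0. Of the 51 genes, 35 had an entry in the promoter table, with 45 windows, and 7 of these windows held the motif (*Dkk1*, *Fzd7*, *Lef1*, *Sp5*, *Tcf7l2*, *Wnt11* and *Wnt5b*), beside 14.8% of all 32851 windows. A pair of RA receptor binding hexamers (AGGTCA and its variants AGTTCA, with GGGTCA and also GGTTCA, in the same direction on either strand) spaced by 1, 2 or 5 bases was found in 0 of the 45 windows, and in 0.164%, 0.174% and 0.0883% of all windows. Since no such pair was found, none overlapped a TCF match, and these counts describe the windows only.

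Some other genes of the midbrain and hindbrain were higher along with *Wnt1*. Of 9 marker genes of that region, 3 rose and 0 fell, where 10.3% of all genes tested and 15.0% of those with a mean above 10 rose. *Pax5*, which marks the midbrain-hindbrain border, rose from a mean of 352 to 677 (log2 fold change 0.93), and *En1*, which marks the same border, rose from 179 to 292 (0.70). *Egr2*, a hindbrain gene, had 0 reads in wild-type and 2.86 to 9.41 normalized counts in *Rdh10* KO, so its call rests on few reads. Its mean was not above 10, so the share of 15.0% does not cover all 9 genes. The other hindbrain genes of the list, *Hoxb2* and *Hoxa2*, did not pass the test, with log2 fold changes of -1.08 and -0.24, and *Hoxb2* had a wild-type mean of 14.1 and counted 3.58, 6.40 and 3.53 in *Rdh10* KO. No gene of the list was at 0 in all 6 libraries. *Gbx2*, *Pax8*, *En2* and *Lmx1b* did not pass the test, with log2 fold changes of 0.78, 0.60, 0.21 and 0.05. The summed level of the list was 1617 to 1981 in wild-type and 2839, 2590 and 1854 in *Rdh10* KO replicates 1, 2 and 3, so that the sums of the groups overlapped. For *Wnt1* the groups did not overlap, and the same held for *Pax5* and *En1*. *Pax5* counted 300 to 424 in wild-type and 496.5 to 777 in *Rdh10* KO, and *En1* 153 to 211 and 236 to 350. The share of this region's cells in the *Wnt1* result was not tested. *Wnt3a*, a dorsal midline ligand, counted 123, 107 and 79.0 in wild-type and 213, 143 and 122 in *Rdh10* KO. The groups touched at their ends, and its log2 fold change of 0.61 (SE 0.22) did not pass the test (limma adjusted p = 0.0675), although it passed with edgeR and DESeq2 on the recovered reads (adjusted p = 0.0203 with the edgeR quasi-likelihood test and 0.0335 with DESeq2, and 0.0182 to 0.329 over the alternatives).

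*Wnt7b* and *Wnt8b*, ligands of the forebrain neuroepithelium among other sites, were below every wild-type library in *Rdh10* KO replicates 1 and 3, and lowest in replicate 1. *Wnt7b* counted 1347, 1326 and 1168 in wild-type and 574, 1231 and 1006 in *Rdh10* KO replicates 1, 2 and 3. *Wnt8b* counted 593, 537 and 569 in wild-type and 328, 689 and 400 in the *Rdh10* KO libraries. In replicate 2 *Wnt7b* lay within the wild-type range and *Wnt8b* above it. In replicate 1 the sum of 7 forebrain markers was also low, at 2348, against 2968 to 3483 in wild-type and 3817 and 3844 in the other *Rdh10* KO libraries, so replicate 3 was low for both ligands but not for these markers, and 0 of the 7 markers was at 0 in all libraries. The log2 fold change of *Wnt7b* was -0.52 (SE 0.19, limma adjusted p = 0.0806) with all libraries (0.0298 with the edgeR quasi-likelihood test, and 0.0298 to 0.398 over the alternatives) and -0.20 without *Rdh10* KO replicate 1, and that of *Wnt8b* was -0.33 and -0.11. *Wnt8b* passed the test only when *Rdh10* KO replicate 2 was left out (-0.64, adjusted p = 0.0198).

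**Figure D2:**
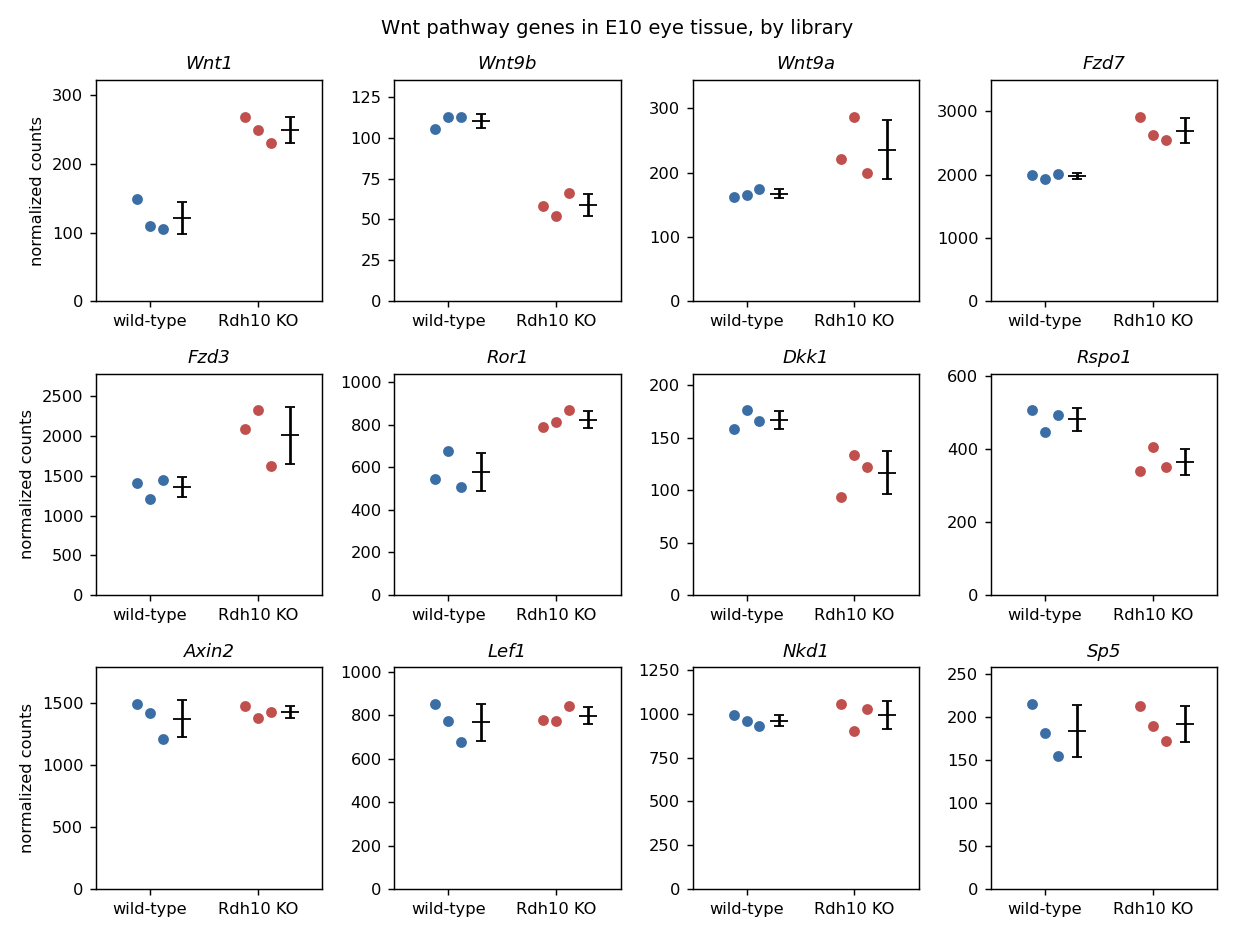
Normalized counts of 12 Wnt genes in each of the 6 libraries (points), with the mean and SD of each group (black bar with whiskers) and a separate axis for each gene. *Wnt1* lies at 105 to 148 in wild-type and at 231 to 269 in *Rdh10* KO, and *Wnt9b* at 105 to 113 and at 52.3 to 65.9.

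Levels of different ligands were compared per exon length, as FPKM derived here from whole reads. *Wnt7b* was the highest in wild-type at 13.4 FPKM, followed by *Wnt6* at 11.3, *Wnt5b* at 9.55, *Wnt8b* at 8.32, *Wnt5a* at 8.12, *Wnt4* at 5.19 and *Wnt7a* at 4.06. *Wnt1* stood at 2.61 FPKM and *Wnt9a* at 2.57, with *Wnt3a*, *Wnt3*, *Wnt9b* and *Wnt2b* between 1.90 and 0.976, and *Wnt10a* and *Wnt11* at 0.221 and 0.147. For 7 of the 14 pairs of neighbours in this order the wild-type libraries overlapped, among them every pair from *Wnt7b* to *Wnt5a*, so their order is not resolved. In *Rdh10* KO, *Wnt1* stood at 5.39 FPKM and *Wnt9b* at 0.668. *Wnt1* made up 3.28% to 4.16% of the summed FPKM of the 15 ligands in wild-type and 7.48% to 8.81% in *Rdh10* KO. The sum itself overlapped between the groups, at 76.8, 67.4 and 69.1 in wild-type and 66.1, 71.1 and 65.9 in *Rdh10* KO. *Wnt1*, *Wnt9a* and *Wnt9b*, which passed the test, thus stood below the 7 ligands of highest level. Of those 7, *Wnt7b* had a log2 fold change of -0.52, *Wnt5b* and *Wnt8b* -0.33 each, *Wnt7a* -0.25, *Wnt5a*, a ligand of non-canonical signalling, -0.12 (95% interval -0.30 to 0.06), *Wnt6*, an ectodermal ligand, -0.10 and *Wnt4* 0.19, and none of these passed.

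**Figure D3:**
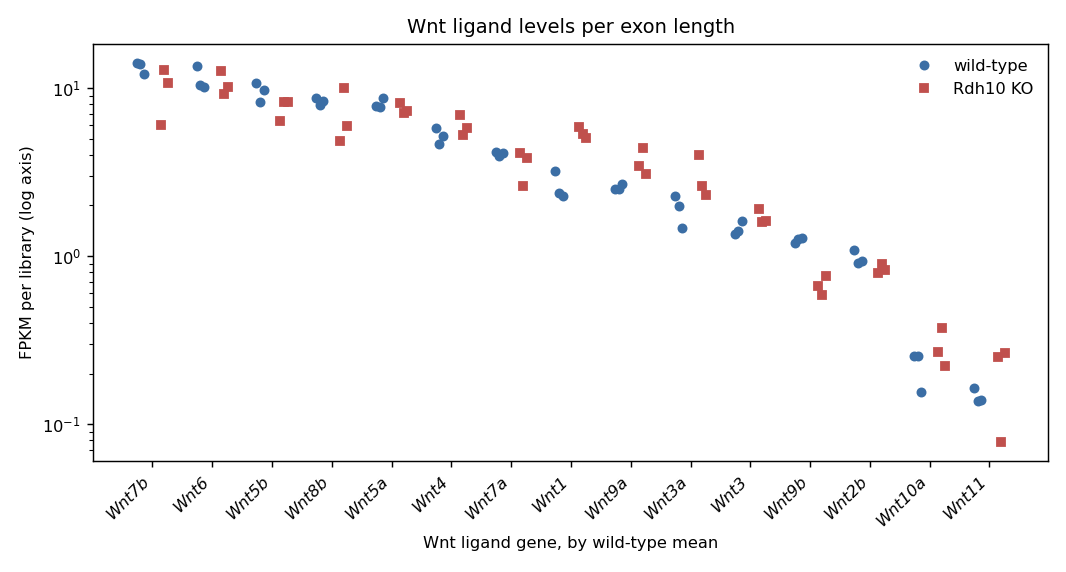
FPKM of the 15 Wnt ligands on a log axis, in order of the wild-type mean, with 1 point per library for wild-type and *Rdh10* KO. *Wnt1* stood at 2.61 in wild-type and 5.39 in *Rdh10* KO, and *Wnt9b* at 1.25 and 0.668, and on this scale the ranges of the groups are also apart for *Wnt9a*, *Wnt3a* and *Wnt2b*.

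Several ligand genes lie next to each other in the genome, which allowed neighbours to be set side by side. *Wnt9b* and *Wnt3* lie 24.3 kb apart on chromosome 11, and their log2 fold changes were -0.91 and 0.22. *Wnt3a* and *Wnt9a*, 16.2 kb apart on the same chromosome, had 0.61 and 0.47. *Wnt1* at 1.05 lies 11.7 kb from *Wnt10b*, a ligand outside the list of 51, which counted 7.79 to 16.4 in wild-type and 10.7 to 22.2 in *Rdh10* KO and had a log2 fold change of 0.47 that did not pass the test. *Wnt6* and *Wnt10a*, 6.19 kb apart on chromosome 1, had -0.10 and 0.37, and neither passed. The difference between neighbours was not tested.

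Of the 14 receptors 6 rose and 0 fell, beside 15.0% and 13.4% of the genes with a mean above 10, and their median log2 fold change was 0.16. Their median exon length was 5290 bp, against 4248.5 bp for those genes, and after correction for the GC content and length of genes 3 of the 6 (*Fzd3*, *Fzd7* and *Ror1*) passed as higher and *Fzd8* passed as lower. *Fzd7*, a frizzled that takes part in canonical signalling, counted 1988, 1931 and 2016 in wild-type and 2917, 2621 and 2547 in *Rdh10* KO. The groups did not overlap. The rise was 1.36-fold, with a log2 fold change of 0.44 (SE 0.07, 95% interval 0.29 to 0.60, limma adjusted p = 0.000824). *Fzd3*, a frizzled known for axon guidance and planar polarity, counted 1409, 1214 and 1447 in wild-type and 2087, 2323 and 1620 in *Rdh10* KO, 1.48-fold higher (log2 fold change 0.56, SE 0.12, limma adjusted p = 0.00392). *Fzd5*, a frizzled of the eye field and retina, counted 398, 394 and 399 in wild-type and 448, 669 and 581 in *Rdh10* KO, 1.43-fold higher (0.49, SE 0.13, limma adjusted p = 0.0146). The wild-type libraries of *Fzd5* were close to each other, and the spread lay in the *Rdh10* KO libraries.

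*Ror1*, a receptor kinase for Wnt5a, counted 546, 675 and 507 in wild-type and 791, 811 and 866 in *Rdh10* KO, 1.43-fold higher (log2 fold change 0.52, SE 0.11, limma adjusted p = 0.00365). Both co-receptors of canonical signalling rose as well. *Lrp5* counted 1285, 1185 and 1104 in wild-type and 1480, 1379 and 1715 in *Rdh10* KO, and *Lrp6* counted 2385, 2276 and 2551 and 2918, 3177 and 2877. Their rises were small, 1.28-fold (0.35, SE 0.09, limma adjusted p = 0.0153) and 1.24-fold (0.32, SE 0.07, limma adjusted p = 0.00738). *Fzd8*, a frizzled of the anterior head, counted 771, 667 and 728 in wild-type and 604, 660 and 515 in *Rdh10* KO, so that the groups did not overlap, but its log2 fold change of -0.29 (SE 0.10) did not pass the test (limma adjusted p = 0.0714). *Fzd2* was the receptor of highest level, at 43.9 FPKM in wild-type, where *Fzd7* stood at 22.3, and it did not pass the test (log2 fold change 0.10, 95% interval -0.05 to 0.24). Neither did *Fzd1*, *Fzd4*, *Fzd6*, *Fzd9*, *Fzd10* and *Ror2*, which lay between -0.18 and 0.19.

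In these libraries, higher calls went with long transcripts. Among the genes with a mean above 10, 5.58% were higher and 18.0% lower in the shortest of 5 classes of exon length (56 to 2186 bp), and 32.3% were higher and 5.39% lower in the longest (7417 to 123179 bp). Of the 7 Wnt genes in the longest class 5 rose (*Fzd3*, *Lrp5*, *Lrp6*, *Znrf3* and *Tcf7l2*), and the other 2, *Wnt5a* and *Lef1*, did not pass the test. The median exon length was 6338.5 bp for the 12 genes that rose, 3127.5 bp for the 4 that fell and 3663 bp for the rest. When fold changes were corrected for the GC content and length of each gene, an alternative chosen after the data were seen, 7 Wnt genes were lower and 8 higher. Over all genes the reported fit gave 2091 lower and 2360 higher of 22921, and the correction gave 2942 and 1956 of 22800. The log2 fold change was then 0.05 for *Lrp6* (adjusted p = 0.637), 0.14 for *Lrp5* (0.154), 0.36 for *Fzd5* (0.0606), 0.23 for *Tcf7l2* (0.102) and 0.23 for *Znrf3* (0.107), so these 5 calls ended. *Fzd7* at 0.40, *Fzd3* at 0.36 and *Ror1* at 0.45 kept theirs (adjusted p = 0.00119, 0.0181 and 0.00661), as did *Wnt1* at 1.08 and *Wnt9b* at -0.95 (0.000259 and 0.00197). Another 4 genes passed with the correction but not in the reported fit: *Ctnnb1* at -0.25 (adjusted p = 0.00434), *Fzd8* at -0.39 (0.0176), *Wnt5a* at -0.26 (0.0290) and *Wnt3a* at 0.63 (0.0494).

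**Figure D4:**
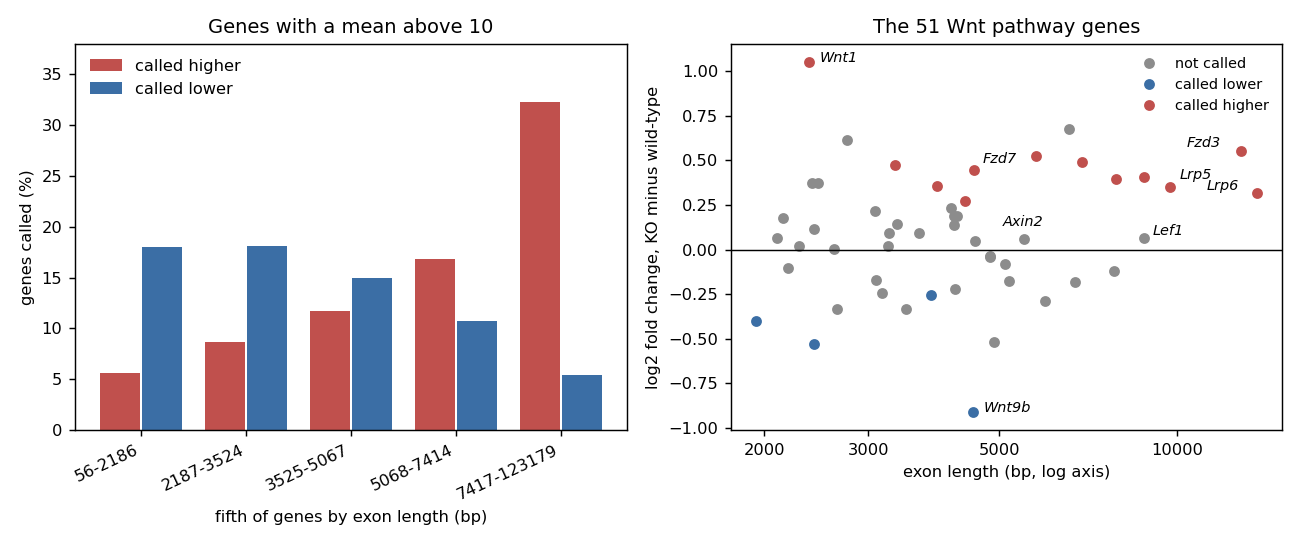
Left, the percent of genes with a mean above 10 that passed the test as higher or lower (bars) in 5 classes of exon length in bp; right, log2 fold change of each of the 51 Wnt genes (points) against exon length in bp on a log axis. Higher calls go from 5.58% in the shortest class to 32.3% in the longest, and *Lrp6*, *Fzd3* and *Lrp5* are among the longest Wnt genes.

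The secreted inhibitors did not move as a group, with 1 of 7 lower, 1 of 7 higher and a median of 0.14. *Dkk1*, which blocks Lrp5 and Lrp6 and is needed for head formation (ENSMUSG00000024868.8, chromosome 19, 30545863 to 30549665, minus strand), counted 159, 176 and 165 in wild-type and 93.8, 133 and 122 in *Rdh10* KO. The groups did not overlap, and *Rdh10* KO replicate 1 was the lowest. The mean fell from 167 ± 8.68 to 117 ± 20.4 (SD, n = 3), to 69.9% of wild-type, with a log2 fold change of -0.53 (SE 0.17, limma adjusted p = 0.0377), and it passed in only 1 of the 6 fits without a library, that without *Rdh10* KO replicate 2. *Sfrp1*, a secreted frizzled-related protein that binds Wnt ligands, counted 4166, 4043 and 3771 in wild-type and 4743, 4918 and 4827 in *Rdh10* KO, 1.21-fold higher (0.28, SE 0.07, limma adjusted p = 0.00872). The other 5 did not pass the test. *Sfrp2*, *Frzb* and *Wif1*, which bind or block Wnt signals outside the cell, lay at 0.18, 0.02 and 0.12, and *Dkk3*, a member of the Dickkopf family, at 0.14. *Notum*, an enzyme that removes the lipid from Wnt ligands, counted 55.2, 27.8 and 19.8 in wild-type and 48.7, 37.3 and 36.5 in *Rdh10* KO, a spread that leaves a 95% interval of -0.40 to 1.15.

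In the R-spondin axis, the ligand *Rspo1* fell and *Znrf3* rose. R-spondins bind Lgr receptors and remove the ubiquitin ligases Znrf3 and Rnf43, which otherwise clear frizzled receptors from the cell surface. *Rspo1* counted 505, 446 and 493 in wild-type and 341, 406 and 349 in *Rdh10* KO, 75.9% of the wild-type level (log2 fold change -0.40, SE 0.11, limma adjusted p = 0.0173). *Znrf3* counted 372, 341 and 354 in wild-type and 490, 431 and 482 in *Rdh10* KO, 1.32-fold higher (0.40, SE 0.10, limma adjusted p = 0.0139). For both genes the groups did not overlap. *Rnf43* counted 100, 67.9 and 49.8 in wild-type and 102, 110 and 124 in *Rdh10* KO. Its groups were also apart, though wild-type replicate 1 nearly reached *Rdh10* KO replicate 1, and its log2 fold change of 0.67 (SE 0.24) did not pass the test (limma adjusted p = 0.0636), although it passed with the edgeR quasi-likelihood test (adjusted p = 0.0456, and 0.0390 to 0.282 over the alternatives). *Rspo2* and *Rspo3* did not pass either, at -0.08 and -0.17.

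Beta-catenin itself and the TCF factors gave differing pictures. *Ctnnb1*, which encodes beta-catenin, counted 33294, 33556 and 34116 in wild-type and 30211, 30426 and 28656 in *Rdh10* KO, so the groups did not overlap, but the decrease to 88.4% (log2 fold change -0.18, SE 0.06) did not pass the test (limma adjusted p = 0.0599). It passed with DESeq2 (adjusted p = 0.0163), with only genes of a mean above 10 and with the GC content and length correction, and its adjusted p ranged from 0.00434 to 0.205 over the alternatives. *Tcf7l1*, a TCF factor best known as a repressor, counted 1522, 1510 and 1514 in wild-type and 1816, 1847 and 2177 in *Rdh10* KO (0.36, SE 0.08, limma adjusted p = 0.00688). *Tcf7l2* counted 882, 756 and 883 in wild-type and 1024, 1039 and 1295 in *Rdh10* KO (0.41, SE 0.10, limma adjusted p = 0.0126). Both rose in all 3 *Rdh10* KO libraries, by 1.28-fold and 1.33-fold. *Lef1* and *Tcf7*, the family members that are themselves targets of the pathway, did not pass the test, with 95% intervals of -0.14 to 0.27 and -0.21 to 0.22.

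Of the feedback targets, *Axin2*, *Lef1*, *Tcf7*, *Nkd1*, *Nkd2*, *Notum*, *Sp5*, *Rnf43* and *Znrf3*, 1 of 9 rose (*Znrf3*) and 0 fell, a share near the 15.0% that rose among genes with a mean above 10, and the median log2 fold change was 0.06. *Axin2*, a scaffold of the destruction complex and a commonly used target gene, counted 1494, 1427 and 1209 in wild-type and 1482, 1381 and 1427 in *Rdh10* KO. The libraries of the genotypes were interleaved. Its log2 fold change was 0.06 (SE 0.09, 95% interval -0.13 to 0.25, limma adjusted p = 0.692), and it turned to -0.03 without wild-type replicate 3 and to -0.02 with the GC content and length correction. *Sp5*, a transcription factor induced by Wnt, counted 215, 181 and 155 in wild-type and 213, 190 and 172 in *Rdh10* KO, with an interval of -0.26 to 0.40. *Nkd1* and *Nkd2*, which bind Dishevelled, had intervals of -0.14 to 0.23 and -0.26 to 0.19. For *Axin2*, *Lef1*, *Tcf7*, *Nkd1* and *Nkd2*, the intervals thus lay between -0.26 and 0.27, whereas those of *Notum* and *Rnf43*, at lower counts, reached 1.15 and 1.19. *Axin1*, the constitutive scaffold, counted 1850, 1690 and 1763 in wild-type and 1575, 1354 and 1528 in *Rdh10* KO, and fell to 84.1% of wild-type (-0.25, SE 0.08, limma adjusted p = 0.0381).

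**Figure D5:**
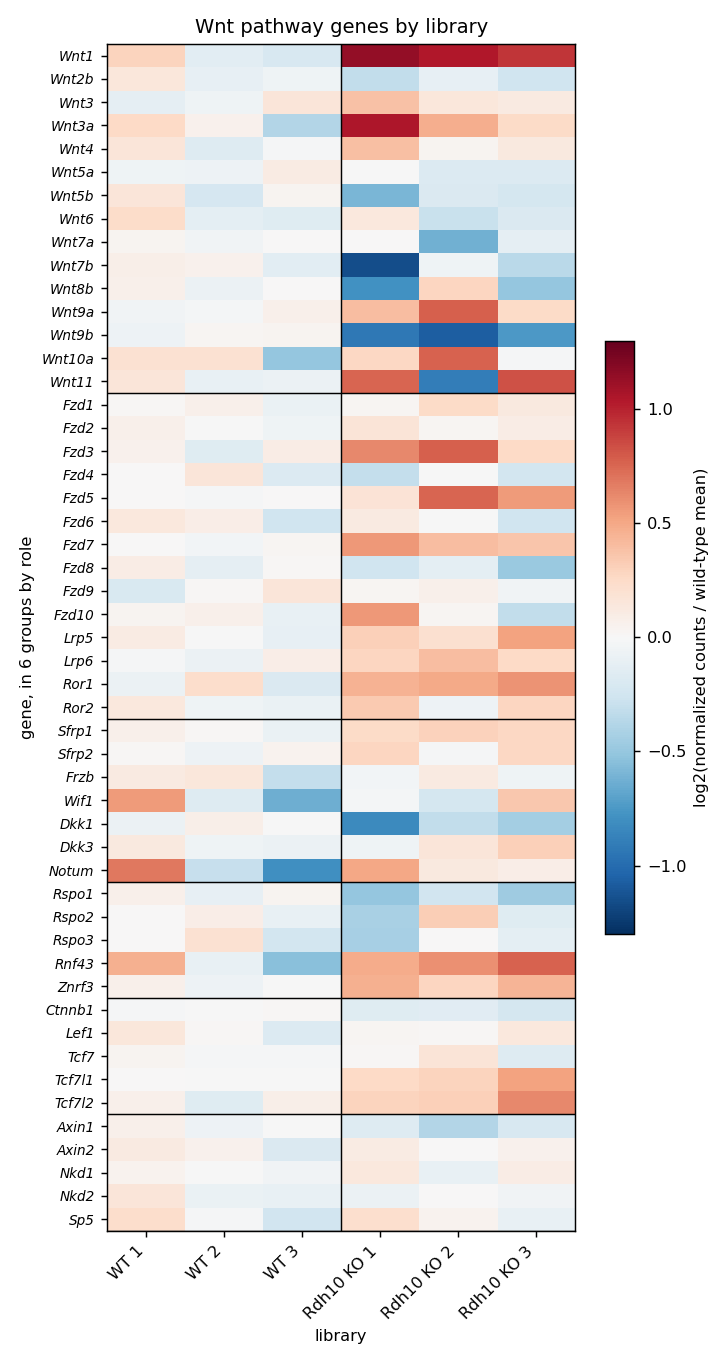
Log2 of the normalized count relative to the wild-type mean for each of the 51 Wnt genes (rows, by role) in the 6 libraries (columns). *Wnt1* is high and *Wnt9b* low in all 3 *Rdh10* KO libraries, *Wnt7b* and *Wnt8b* are low in *Rdh10* KO replicates 1 and 3, and *Axin2*, *Lef1* and *Nkd1* vary little.

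A further 72 genes of the pathway outside the list of 51 were counted, of which 71 were tested. Among these 6 fell (8.45%) and 19 rose (26.8%), beside 9.12% and 10.3% of all genes tested. Over genes with a mean above 10, which most but not all of the 71 reached, the shares were 13.4% and 15.0%. The median log2 fold change of the 71 was 0.16 (0.18 over the 69 genes left without those at 3 reads or fewer in every library of a group). Their median exon length was 5292 bp, and with the GC content and length correction 8 fell and 16 rose. That correction gave 2942 lower and 1956 higher of the 22800 genes in its fit. The poly-ADP-ribosyl polymerase *Tnks*, which marks Axin for destruction, counted 1465, 1328 and 1198 in wild-type and 2461, 2829 and 2613 in *Rdh10* KO, 1.98-fold higher (0.99, SE 0.09, limma adjusted p = 7.43e-06). It was the only one of the 71 to rise past the cut-off, and its exons span 14888 bp. *Gpc6*, a glypican, and *Celsr1*, a cadherin of planar cell polarity, rose by 0.81 and 0.65 (limma adjusted p = 4.51e-05 and 0.000394). A further 2 of the 19, *Wls* and *Porcn*, are named here after their values were seen. *Wls*, the carrier of Wnt proteins to the cell surface, went from 3722 to 5265 (0.49, limma adjusted p = 0.000818) and *Porcn*, which adds their lipid, from 131 to 187 (0.51, limma adjusted p = 0.0306).

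*Dkk4*, a Dickkopf inhibitor, counted 13.3, 6.68 and 4.70 in wild-type and 2.15, 0 and 0 in *Rdh10* KO. With at most 3 reads in each *Rdh10* KO library it was at least 2.78-fold lower against a floor of 3 reads per library (limma adjusted p = 0.0222), and this rests on few reads. *Kremen2*, a Dickkopf receptor, counted 69.6, 81.2 and 56.4 in wild-type and 43.7, 39.5 and 40.0 in *Rdh10* KO (log2 fold change -0.73, limma adjusted p = 0.0431). *Cby1*, an antagonist of beta-catenin, counted 953, 1005 and 970 in wild-type and 627, 626 and 612 in *Rdh10* KO, 63.7% of wild-type (-0.65, limma adjusted p = 0.000107). *Dkk2*, the inhibitor linked to RA in the perioptic mesenchyme and named here after its values were seen, counted 221, 285 and 245 in wild-type and 262, 250 and 240 in *Rdh10* KO, with a log2 fold change of 0.01 (95% interval -0.27 to 0.28).

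In 24 of the 51 genes the annotation places another gene over part of the locus, among them 7 that passed the test (*Fzd3*, *Fzd5*, *Ror1*, *Rspo1*, *Tcf7l1*, *Tcf7l2* and *Axin1*), and whether reads were counted by strand is not given in the sources used here.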

How the data were processed

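Per the labels and the paper, the authors made strand-directed libraries of poly(A) RNA from pools of 3 embryos, aligned the reads to mm10 with TopHat, estimated abundance by expectation-maximization and tested with edgeR. Their text names FPKM, but the deposited signal is a normalized count: whole reads per gene divided by 1 size factor per library (0.850 to 1.40), not by length, so the unit differs from the FPKM that the test design had assumed. At a tolerance of 0.1 read, 99.9962% of the values of wild-type replicate 3 and 100% in the other libraries were whole. Reads on genes ranged from 16392777 to 27101025. An empty line was left out. Of 26437 genes, 26288 matched GENCODE M21 (GRCm38), which gave positions and exon lengths.

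*Rdh10* KO was compared with wild-type by limma 3.58.1 (intensity trend, R 4.3.3) as the sole term, on log2(value + 0.1) of genes whose mean exceeded 0.5, with Benjamini-Hochberg adjustment over all 22921. For genes with few reads, a fold change on this scale depends on the added 0.1 and can lie above or below the ratio of the means. The cut-off of 0.85 is that of the paper's text. P-values rest on the spread between 3 pools per genotype, with each gene's variance drawn towards a trend fitted over all genes tested. edgeR 4.0.16 and DESeq2 1.42.0 were run on the recovered reads as alternatives, with other pseudocounts, filters, scalings, a replicate block, a GC content and length correction added after seeing the data, and each library left out. The tests were tried on simulated data. Python 3.11.15 made tables and plots.

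The 51 genes, the 72 other pathway genes and the marker lists were chosen with earlier results of these data known. Genes named are members of the list; of the others, those past both thresholds and the 3 most extreme called in each direction, with exceptions stated. Promoters are RefSeq's, and 16 of the 51 had no entry. The ChIP-seq and *Alx1* KO work of the study were not analysed here, and results for some genes are left out.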

Additional observations from a re-analysis of the deposited data

How the results depend on the processing

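All 16 genes that passed the test kept their direction under the 18 alternatives, 12 with all libraries and 6 without 1 library. Pseudocounts of 1 and 0.01, other filters, TMM scaling, quantile normalization, edgeR and DESeq2 left 4 to 5 Wnt genes lower and 11 to 14 higher. On the recovered reads the edgeR quasi-likelihood test called 2190 genes lower and 2608 higher in all, and DESeq2 2242 and 2461. Without limma's intensity trend, 1 was lower and 0 higher, with 0 higher past the cut-off, beside 1 lower and 2 higher of the other pathway genes and 197 lower and 448 higher of all genes tested; the cause was not tested. With the GC content and length correction 7 were lower and 8 higher, and over all genes tested 2942 and 1956, where the reported fit gave 2091 and 2360. Quantile normalization turned the same split to 2278 and 2124. Without 1 library each, 0 to 4 Wnt genes were lower and 3 to 10 higher, with 0 to 1 lower past the cut-off (0 without wild-type replicate 2 and without *Rdh10* KO replicate 2), 3 to 5 lower and 7 to 17 higher of the other pathway genes, and 427 to 1895 lower and 850 to 1983 higher of all genes tested, with fewer libraries in each fit.

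Deviations from the group means correlated at -0.026, -0.035 and -0.074 between libraries of the same number (15272 genes). These values show no shared deviation, but they cannot exclude that the replicate numbers pair the pools. Whether they do is not given in the sources used here. With a replicate block, 1 Wnt gene was lower and 11 higher, and 1387 and 1715 of all genes.

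Directions that changed all belong to 13 genes that did not pass the test. Quantile normalization gave log2 fold changes of -0.082 for *Fzd9*, -0.011 for *Frzb*, -0.030 for *Tcf7* and -0.030 for *Sp5*, and the GC content and length correction gave -0.10 for *Lef1* and -0.018 for *Axin2*. Without 1 library each, the log2 fold change ranged from -0.23 to 0.026 for *Wnt6*, -0.064 to 0.79 for *Wnt11*, -0.16 to 0.065 for *Fzd6*, -0.075 to 0.10 for *Fzd9*, -0.15 to 0.30 for *Fzd10*, -0.12 to 0.11 for *Frzb*, -0.16 to 0.43 for *Wif1*, -0.29 to 0.084 for *Rspo2*, -0.023 to 0.14 for *Lef1*, -0.076 to 0.090 for *Tcf7*, -0.030 to 0.12 for *Axin2*, -0.078 to 0.050 for *Nkd2* and -0.048 to 0.19 for *Sp5*.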
